A study of Mus musculus with 16 samples.

Results

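The comparison described here set splenic CD4 T cells of mice carrying a transplanted lymphoma for 7 days against splenic CD4 T cells of tumour-free mice, over all genes of 1 count table. It used 12 of the 16 libraries of the study, namely all 7 labelled early (day 7) and all 5 labelled as controls (day 0). The 4 libraries from day 14 entered only the gene filter, the scaling and the estimate of spread. All mice were C57BL/6. The day 7 mice had received Eu-Myc lymphoma cells, a B cell lymphoma in which Myc is driven by the immunoglobulin heavy chain enhancer, and the controls bore no tumour. CD4 T cells were obtained by negative selection with magnetic beads, a procedure that removes other cells with antibodies and so keeps any cell that no antibody binds. Sex, age, the number of lymphoma cells given and any mock injection of the controls are not given in the labels used here. Each library was taken as 1 mouse because the design text counts mice. The p-values below set a difference between groups against the spread between libraries.

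CD4 T cells recognise peptides on MHC class II molecules and help B cells, CD8 T cells and macrophages. Resting cells circulate in a naive state with low biosynthesis, and antigen drives them into growth, division and effector programmes, of which follicular helper and regulatory T cells are the forms most discussed for B cell lymphoma. The spleen is a site where transplanted Eu-Myc lymphoma cells settle, and it is also a blood-forming organ in the mouse, so red cell, neutrophil and progenitor cells are its other sources of RNA.

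Reads assigned to genes numbered 14493764 to 24916411 in the day 7 libraries and 21610411 to 27340070 in the controls. Levels are given in CPM, a gene's count as a share of its library's gene counts, with library sizes scaled by the trimmed mean of M-values. Cd4 was abundant in all 12 libraries, at 1207 to 1801 CPM at day 7 and 781 to 1678 CPM in the controls, and Cd3e, a subunit of the T cell receptor complex, was at 1085 to 1875 and 879.8 to 1598 CPM, control library 2 being the lowest for both genes. Control libraries 1 and 2 stood apart in carrying myeloid and dividing-cell transcripts, and the list medians and, except for genes neighbouring a named one, the log2 changes against all 5 controls are therefore also given without them. Xist, the RNA that silences an X chromosome in female cells, was above 100 CPM in day 7 libraries 1 to 5 and control libraries 3 to 5, and Y-linked transcripts were above 100 CPM in day 7 libraries 6 and 7 and control libraries 1 and 2. Among the controls, the presence of Y-linked RNA and the myeloid and dividing-cell transcripts therefore cannot be told apart. Reads falling outside gene models made up 58.9 ± 5.27% of all reads at day 7 (SD, n = 7) and 51.1 ± 3.65% in the controls (SD, n = 5; exact 2-sided permutation p = 0.0189, 0.0379 after adjustment over 4 library measures). The difference was 8.35 percentage points without control libraries 1 and 2 (adjusted p = 0.0333, exact permutation), and leaving out day 7 library 2 or 5 or control library 1, 3, 4 or 5 lost the call (adjusted p 0.0563 to 0.0788, exact permutation). The share of reads placed at more than 1 position was 7.41 ± 0.369% at day 7 and 9.44 ± 0.591% in the controls (SD, n = 7 and n = 5; exact permutation p = 0.00126, adjusted 0.00505), and the difference without control libraries 1 and 2 was -2.04 percentage points (exact permutation, adjusted p = 0.0333).

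At day 7 only 2 genes passed the test against the controls, and both were higher: Zc3hav1l and 1810019D21Rik. Of 18430 genes tested with edgeR's quasi-likelihood test, 2 (0.0109%) were higher and 0 (0%) lower at a Benjamini-Hochberg adjusted p below 0.05. Many genes lay close to that threshold: below an adjusted p of 0.10, 474 genes (2.57%) were higher and 943 (5.12%) lower, and at an unadjusted p below 0.05 the counts were 1553 and 2337. DESeq2 called 499 genes higher (3.82% of the 13067 to which it gave an adjusted p) and 1104 lower (8.45%). Without control libraries 1 and 2, edgeR called 0 of 19144 genes (0%), with 1788 higher and 627 lower at an unadjusted p below 0.05, and DESeq2 called 260 higher (1.39%) and 39 lower (0.208%). Leaving out day 7 library 1, 2, 3, 5 or 7, or control library 1 or 2, left edgeR with 0 calls, whereas leaving out control library 5 gave 429 higher and 1026 lower.

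A second description counts genes whose day 7 libraries did not overlap the controls. All 7 day 7 libraries lay above all 5 controls for 181 genes (0.982% of those tested) and below them for 183 (0.993%). Among the 8417 genes averaging 10 CPM or more the counts were 106 above (1.26%) and 162 below (1.92%). Against control libraries 3 to 5 alone, 472 genes lay above (2.47%) and 372 below (1.94%). The median log2 change was 0.07 over all tested genes and -0.03 over genes of at least 10 CPM. Without control libraries 1 and 2 these medians were 0.12 and -0.04. The change was positive in 56.2% of all tested genes, and in 62.4% without control libraries 1 and 2. With the share of reads outside gene models as a covariate, edgeR called 0 genes, with 1211 higher and 1912 lower at an unadjusted p below 0.05.

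Zc3hav1l, a gene coding for a protein related to the zinc-finger antiviral protein ZAP, rose at day 7. Its level was 7.23, 7.27, 9.64, 10.2 and 9.71 CPM in control libraries 1 to 5, and its lowest, median and highest day 7 levels were 16, 17.6 and 25.3 CPM. Every day 7 library lay above every control, and day 7 library 3 was the highest. The means were 8.81 ± 1.45 (SD, n = 5) and 18.5 ± 3.16 CPM (SD, n = 7), a log2 change of 1.07 (SE 0.16; edgeR's quasi-likelihood test, adjusted p = 0.0219). Without control libraries 1 and 2 the log2 change was 0.91 and the adjusted p 0.172. Zc3hav1l lies on the minus strand of chromosome 6 at 38287396 to 38299259 (GRCm38, GENCODE). Zc3hav1, the gene for ZAP itself, lies 6027 bases away on the same strand and was at 565 ± 99.1 and 570.2 ± 51.8 CPM (SD, n = 5 and n = 7; log2 change 0.01, SE 0.11, edgeR adjusted p = 0.967).

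1810019D21Rik, a noncoding transcript of unknown function, was the other gene that rose. It was at 1.01, 1.4, 3.27, 1.5 and 1.67 CPM in control libraries 1 to 5, and its lowest, median and highest day 7 levels were 5.36, 8.01 and 10.1 CPM. The groups did not overlap, with control library 3 the highest control. The log2 change was 2.07 (SE 0.31; means 1.77 ± 0.871 and 7.45 ± 1.81 CPM, SD, n = 5 and n = 7; edgeR adjusted p = 0.0219), and 1.79 with an adjusted p of 0.172 without control libraries 1 and 2. The gene lies on the plus strand of chromosome 8 at 106135400 to 106138525 and overlaps Esrp2, a splicing regulator gene on the minus strand, so that reads of the pair cannot be told apart unless strand was used in counting. Esrp2 was at 0.406 CPM in the controls and 0.624 CPM at day 7. Nfatc3, the T cell activation factor gene 4863 bases upstream, was at 439 and 479 CPM (log2 change 0.13, edgeR adjusted p = 0.593).

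The sequences around the starts of the 2 genes that rose are shown 5′ to 3′ on the strand of the gene, from RefSeq (GRCm38.p6), chr6:38299210-38299509 on the minus strand and chr8:106135150-106135449 on the plus strand. Capitals mark CAGGTG or, on the other strand, CACCTG, an E-box searched on both strands after the sequences had been read.
Zc3hav1l: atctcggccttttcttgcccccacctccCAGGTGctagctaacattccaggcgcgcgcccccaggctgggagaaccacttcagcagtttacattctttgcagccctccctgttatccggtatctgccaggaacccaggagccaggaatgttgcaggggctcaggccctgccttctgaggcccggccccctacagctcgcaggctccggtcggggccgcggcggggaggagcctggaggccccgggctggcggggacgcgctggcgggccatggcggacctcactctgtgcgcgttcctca
1810019D21Rik: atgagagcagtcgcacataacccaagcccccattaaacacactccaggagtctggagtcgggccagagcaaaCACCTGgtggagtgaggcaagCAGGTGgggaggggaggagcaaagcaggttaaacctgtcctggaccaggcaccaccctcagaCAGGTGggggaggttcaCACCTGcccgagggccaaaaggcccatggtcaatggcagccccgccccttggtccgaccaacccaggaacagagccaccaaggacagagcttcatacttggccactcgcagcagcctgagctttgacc
The Zc3hav1l stretch held 1 match and the 1810019D21Rik stretch 4. At least 1 match was present in 20.21% of the 32851 RefSeq promoters of this length and 3 or more in 0.3653%. G and C made up 67.33% and 60.33% of the bases.

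Other genes with no overlap between the groups and the largest differences came from several functions, and none of them passed the edgeR test with all libraries. Fbxl22, coding for an F-box protein of muscle, was at 14.9, 8.94, 12.5, 11.6 and 14.2 CPM in control libraries 1 to 5 and at 23.5, 30.1 and 33.4 CPM (lowest, median, highest) at day 7. Pygm, the muscle form of glycogen phosphorylase, was at 16.2, 16.3, 16.4, 10.2 and 9.1 CPM in the controls and at 20.1, 31.4 and 37 CPM at day 7. Mss51, coding for a mitochondrial zinc-finger protein of muscle, was at 5.24, 7.18, 7.69, 10.2 and 8.93 and 13.8, 16.5 and 19.9 CPM. For each of these muscle-named genes the lowest day 7 library lay above the highest control. Their log2 changes were 1.26 (SE 0.25), 1.13 (SE 0.27) and 1.08 (SE 0.18), with edgeR adjusted p-values of 0.0709, 0.074 and 0.0709. Without control libraries 1 and 2 they were 1.23, 1.33 and 0.89.

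Zc3h6, coding for another CCCH zinc-finger protein, was at 55.3 to 86.4 CPM at day 7 and 27.9 to 53.3 CPM in the controls (log2 change 0.74 ± 0.18, SE; edgeR adjusted p = 0.0777; 0.80 without control libraries 1 and 2). Zfp354c, a KRAB zinc-finger gene, was at 15.4 to 21.8 and 10.3 to 15.2 CPM, and Dcaf17, coding for a substrate receptor of a ubiquitin ligase, at 35.1 to 47.7 and 26.5 to 33.4 CPM. In all 3 genes the groups lay close to each other without overlap. Nfkbiz, coding for the nuclear inhibitor IkB-zeta, was at 255, 226, 297, 224 and 229 CPM in control libraries 1 to 5 and at 284, 419 and 462 CPM at day 7. Its lowest day 7 library, library 6, fell inside the control range, and the other 6 lay above it (log2 change 0.68 ± 0.13, SE; edgeR adjusted p = 0.0709; 0.66 without control libraries 1 and 2).

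Chst11, a chondroitin sulfotransferase gene, was among the genes at lower levels with no overlap. It was at 32, 42.6, 10.9, 8.87 and 7.77 CPM in control libraries 1 to 5 and at 2.23, 4.1 and 6.87 CPM at day 7. Control libraries 1 and 2 were the highest, and the log2 change of -2.33 (SE 0.43; edgeR adjusted p = 0.0709) became -1.18 without them. Klrk1, coding for the activating receptor NKG2D, was at 11.5, 10.8, 10, 9.07 and 10.2 CPM in the controls and at 2.0, 3.79 and 7.29 CPM at day 7 (log2 change -1.34 ± 0.31, SE; edgeR adjusted p = 0.0736). The 5 controls of Klrk1 lay within a narrow range and the log2 change was -1.25 without control libraries 1 and 2. Stmn1, coding for a microtubule regulator of dividing cells, was at 5.18 to 12.1 CPM at day 7, at 13.2, 16.7 and 15.5 CPM in control libraries 3 to 5, and at 28.5 and 39.4 CPM in control libraries 1 and 2.

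Faim3, coding for the Fc receptor of IgM and chosen after its values were seen, was at 27, 11.7, 15.4, 25.3 and 4.12 CPM in the controls and at 2.52, 4.79 and 5.72 CPM at day 7 (log2 change -1.97 ± 0.36, SE; edgeR adjusted p = 0.0709; -1.81 without control libraries 1 and 2). Control library 5 lay inside the day 7 range and the other 4 controls above it. Ninj1, coding for a protein of plasma membrane rupture, was at 3.44 to 7.35 CPM at day 7 and 8.12 to 19.4 CPM in the controls. Rps27l, coding for a ribosomal protein homologue that p53 induces, was at 13.7 to 28 and 29.2 to 72 CPM, and Ctsc, coding for the protease that activates granzymes, at 40.4 to 59.4 and 66.1 to 158 CPM. In these 3 genes the day 7 libraries lay below all 5 controls and the edgeR adjusted p-values were 0.0709, 0.0715 and 0.0709. Their log2 changes were -1.22, -1.16 and -0.83 with all controls and -0.81, -0.73 and -0.40 without control libraries 1 and 2.

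**Figure D1:**
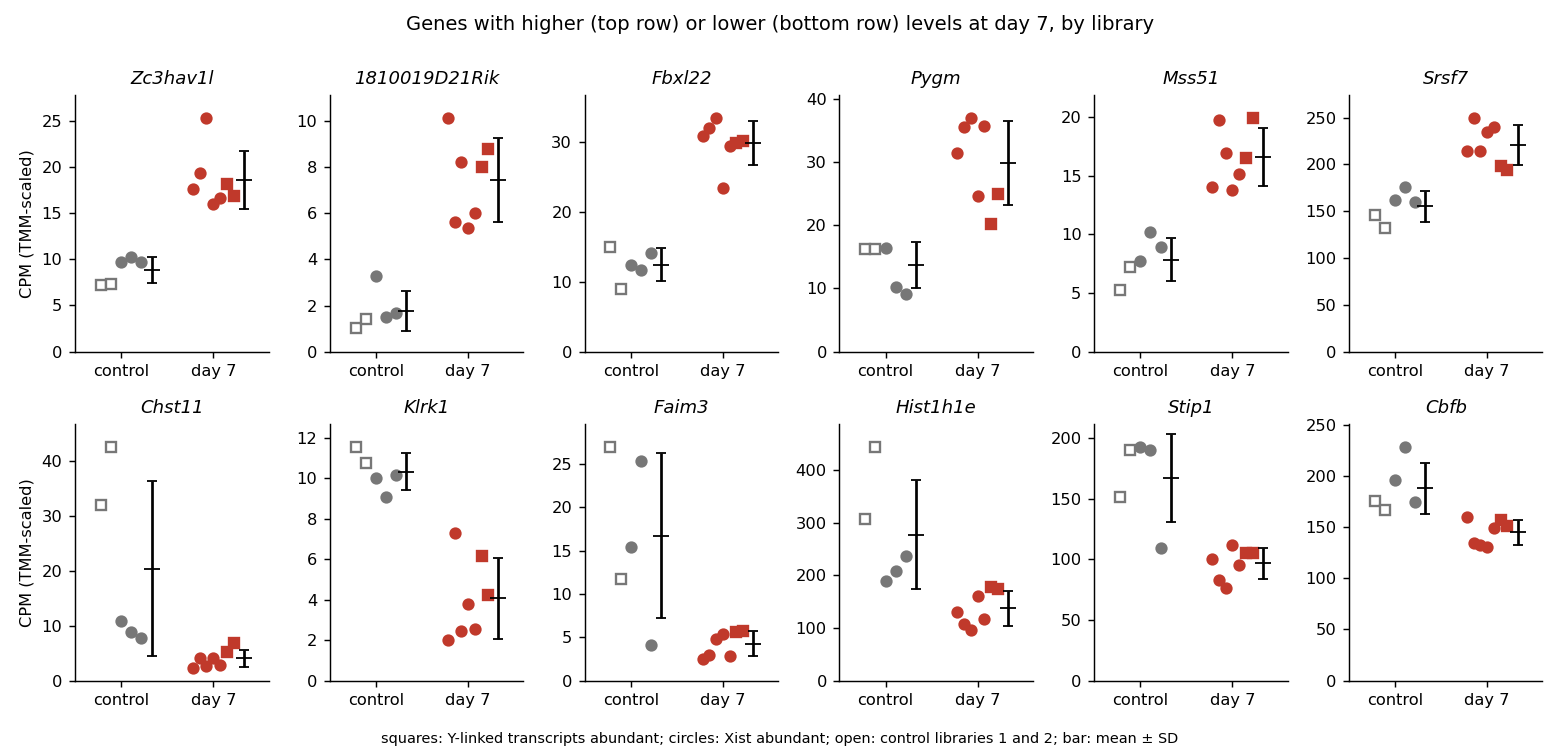
Level of 12 genes in each library (vertical axis, TMM-scaled CPM, starting at 0; grey, 5 controls; red, 7 day 7 libraries; squares, abundant Y-linked transcripts; circles, abundant Xist; open, control libraries 1 and 2; bar, mean ± SD). Zc3hav1l and 1810019D21Rik passed the edgeR test with all libraries, and in Faim3 control library 5 lies among the day 7 libraries.

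Genes of energy metabolism and protein turnover were at slightly lower levels in the day 7 libraries, list by list, though no member passed the edgeR test with all libraries. In the list of oxidative phosphorylation, the mitochondrial chain that makes ATP, all 24 tested members had a negative log2 change, the median was -0.33, and 5 members lay below all 5 controls in all 7 day 7 libraries, as did 0.993% of all genes tested and 1.92% of genes of at least 10 CPM. Of the 8417 genes of at least 10 CPM, 4614 had a negative change. Without control libraries 1 and 2 all 24 members stayed negative, with a median of -0.27. The list index, the mean log2(CPM + 1) of the tested members, was 6.47, 6.54, 6.38, 6.30 and 6.23 in control libraries 1 to 5 and 5.75, 6.03 and 6.34 (lowest, median, highest) at day 7. Only day 7 library 4 reached into the control range.

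Atp5a1, coding for the alpha subunit of ATP synthase, shows the size of these differences. It was at 581, 682, 512, 513 and 495 CPM in control libraries 1 to 5 and at 356, 399 and 461 CPM at day 7 (log2 change -0.45 ± 0.11, SE; edgeR adjusted p = 0.0777; -0.31 without control libraries 1 and 2), with no overlap between the groups. The mitochondrial ribosome list had 20 of 20 members with a negative change and a median of -0.29 (-0.18 without control libraries 1 and 2). Its member Mrpl20 was at 12.9 to 20.2 CPM at day 7 and 22.4 to 38.9 CPM in the controls. Timm10, coding for a chaperone of mitochondrial protein import, was at 4.83 to 11.1 and 11.3 to 18.3 CPM. Both were below every control in every day 7 library.

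Translation factors, the proteins that start and extend protein synthesis on ribosomes, had 18 of 21 members with a negative change, a median of -0.29 and 6 members below all controls in all day 7 libraries (0.993% of all genes tested, 1.92% at 10 CPM or more). Eif3b, a subunit of an initiation factor, was at 164 to 200.2 CPM at day 7 and 201 to 299 CPM in the controls. Proteasome subunits had 24 of 25 members with a negative change, a median of -0.33, and 4 members without overlap, read against the same shares. Psmc1, an ATPase of its regulatory particle, was at 121, 190.2, 107, 114 and 91.8 CPM in control libraries 1 to 5 and at 73.1, 79.3 and 88.3 CPM at day 7, and Psmd4, its ubiquitin receptor, was at 75.3 to 90.8 CPM at day 7 and 101 to 123 CPM in the controls. Cytosolic ribosomal protein genes had 23 of 25 members with a negative change and a median of -0.21, but no member without overlap against all 5 controls. The medians without control libraries 1 and 2 were -0.22 for translation factors, -0.25 for the proteasome and -0.27 for the cytosolic ribosome.

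Chaperones of the heat shock list had 17 of 21 members with a negative change (median -0.34, -0.24 without control libraries 1 and 2). Stip1, coding for the organiser of the HSP70 and HSP90 chaperones, was at 151, 190.1, 192, 190.3 and 109.6 CPM in the controls and 76.6, 100.0 and 112 CPM at day 7, and the lowest control, library 5, overlapped the highest day 7 library. Cct3, a subunit of the cytosolic chaperonin, was at 75.3 to 95.8 CPM at day 7 and 94.8 to 147 CPM in the controls. In the list of hypoxia and glycolysis 15 of 19 members had a negative change (median -0.27, -0.16 without control libraries 1 and 2), and Ldha, coding for lactate dehydrogenase, was at 193 to 298 and 305 to 358 CPM. Antioxidant genes had 15 of 16 members with a negative change and a median of -0.49 (-0.28 without control libraries 1 and 2). Cmpk1, coding for a pyrimidine nucleotide kinase, was at 54.7 to 74.8 CPM at day 7 and 82.2 to 117 CPM in the controls, without overlap.

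The share of reads outside gene models moved with these lists. It was 54.65, 62.91, 67.97, 54.63, 61.66, 55.03 and 55.78% in day 7 libraries 1 to 7 and 47.06, 56.67, 48.75, 51.37 and 51.68% in control libraries 1 to 5. Day 7 library 3, with the highest share, had the lowest index of oxidative phosphorylation (5.75), of proteasome (5.54) and of translation factors (8.07). It also had the lowest index of the mitochondrial (4.18) and the cytosolic ribosome (8.56). In other lists the lowest day 7 index lay elsewhere: library 1 for hypoxia and glycolysis (5.57), library 7 for heat shock (6.80) and library 5 for antioxidant genes (4.97). Control library 2, with a share inside the day 7 range, had the highest control index of each (6.54, 6.26 and 8.70). With the share as a covariate the list medians were -0.11 for oxidative phosphorylation, -0.13 for the mitochondrial ribosome, -0.20 for translation factors, -0.18 for the proteasome and 0.02 for the cytosolic ribosome, beside a median of -0.08 over all tested genes. The sign of the cytosolic ribosome median differed from that without the covariate.

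**Figure D2:**
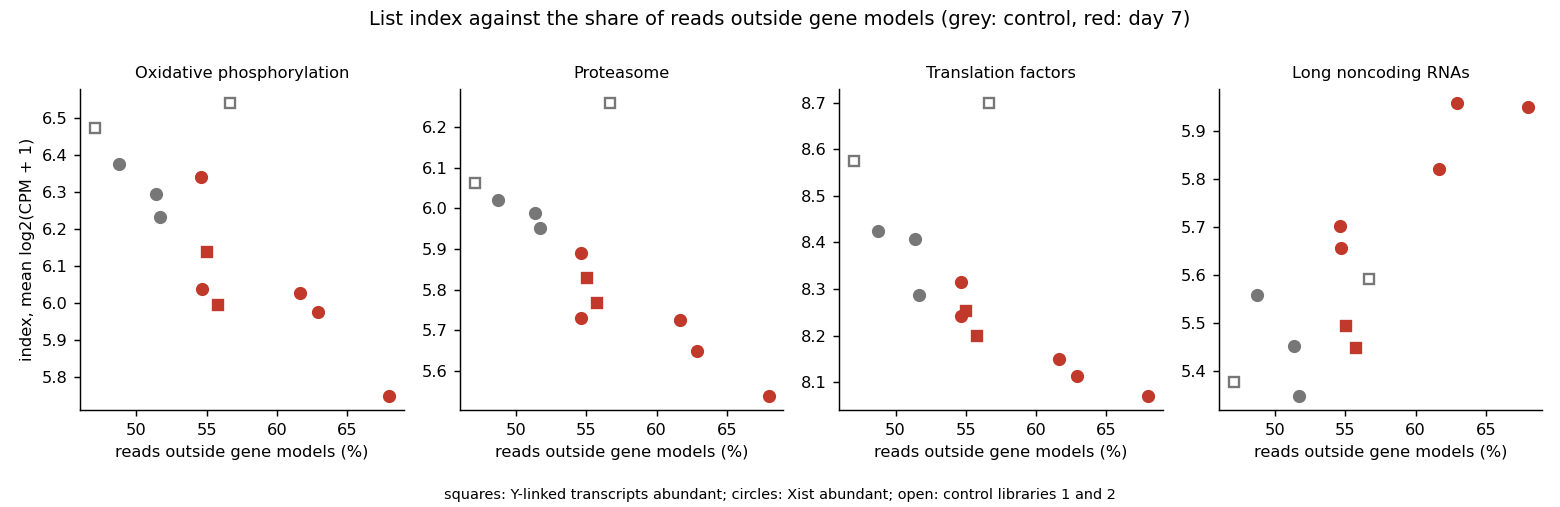
Index of 4 gene lists (vertical axes, mean log2(CPM + 1) of tested members) against the share of reads outside gene models in percent (horizontal axes), 1 point per library (grey, control; red, day 7; squares, abundant Y-linked transcripts; open, control libraries 1 and 2). Day 7 library 3, at 67.97%, has the lowest index of the first 3 lists, and control library 2, at 56.67%, the highest.

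Most listed long noncoding RNAs, nuclear ones and hosts of small nucleolar RNAs, and most very long genes had a positive change at day 7. So did 3803 of the 8417 genes of at least 10 CPM. Of 15 tested long noncoding RNAs, 13 had a positive change, with a median of 0.43 (0.31 without control libraries 1 and 2, 0.16 with the share outside gene models as a covariate), and none passed the edgeR test with all libraries. Malat1, the abundant RNA of nuclear speckles, was at 15591, 17784, 19387, 19785 and 17666 CPM in control libraries 1 to 5 and at 20053, 22970.1 and 33840.0 CPM at day 7, without overlap (log2 change 0.47 ± 0.17, SE; edgeR adjusted p = 0.117; 0.40 without control libraries 1 and 2). Neat1, which builds paraspeckles, was at 552 to 753 CPM at day 7 and 310.5 to 557 CPM in the controls, and Kcnq1ot1, an imprinted antisense RNA, at 379 to 595 and 263 to 383 CPM. The groups overlapped in both. Counting that does not use strand would add reads of Kcnq1 to those of Kcnq1ot1.

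Among 21 very large genes of many exons, 20 had a positive change (median 0.23, 0.14 without control libraries 1 and 2). Macf1, coding for a cytoskeletal linker, was at 4341 to 5313 CPM at day 7 and 2615 to 4217 CPM in the controls, without overlap. Splicing factors had a median of -0.03 (0.13 without control libraries 1 and 2), and of the 22 tested, Srsf6 and Srsf7, serine- and arginine-rich factors that select exons, lay above all controls, as did 0.982% of all genes tested and 1.26% at 10 CPM or more. Srsf7 was at 145, 132, 162, 176 and 160.1 CPM in control libraries 1 to 5 and at 194, 214 and 249 CPM at day 7 (log2 change 0.51 ± 0.10, SE; edgeR adjusted p = 0.0709; 0.41 without control libraries 1 and 2). Srsf6 was at 368 to 517 CPM at day 7 and 269 to 368 CPM in the controls, where the highest control and the lowest day 7 library nearly touched.

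Gene length differed between the sets without overlap, as a description of these libraries. In GENCODE (GRCm38), the median genomic span of genes of at least 10 CPM was 25248.5 bases over all 8360 with a length. It was 36238 bases for 104 of the 106 genes that lay above the controls and 14166 bases for 159 of the 162 that lay below. The median exonic length was 4882.5 bases over all, 6452.5 bases above and 3346 bases below. Symbols of zinc-finger families (Zfp, Zscan, Zkscan, Zbtb, Zik and Znf) made up 9 of the 106 genes above (8.49%), 0 of the 162 below, and 241 of all 8417 (2.86%).

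Genes of T cell identity differed little between day 7 and control, and the 3 list medians below were closer to 0 without control libraries 1 and 2. The T cell receptor complex and its kinases had a median change of 0.22 with all controls and 0.00 without these libraries, over 18 genes. The corresponding medians were 0.17 and -0.05 for naive and central memory genes and 0.12 and 0.07 for regulatory T cell genes. Foxp3, which specifies the regulatory T cell lineage, was at 187 to 255 CPM at day 7 and 152 to 239 CPM in the controls, with full overlap (log2 change 0.16 ± 0.16, SE; edgeR adjusted p = 0.635; 0.10 without control libraries 1 and 2). In bulk RNA, fewer cells of a type and less RNA per cell cannot be told apart.

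Follicular helper genes, expressed by the T cells that help B cells in germinal centres, had a median of 0.28 (0.14 without control libraries 1 and 2). Day 7 libraries 2 and 4 had the highest indices, 4.83 and 4.58, and the other 5 day 7 libraries lay between 3.91 and 4.15, inside the control range of 3.78 to 4.49. Cxcr5, the receptor that guides these cells into follicles, was at 52.5 and 47.2 CPM in day 7 libraries 2 and 4, at 19.1 to 24.3 CPM in the other 5, and at 27, 14.5, 15.9, 17.4 and 27.5 CPM in the controls. The difference in Cxcr5 did not pass the test (log2 change 0.56 ± 0.27, SE; edgeR adjusted p = 0.244; 0.58 without control libraries 1 and 2).

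Dgka, Btla, Nlrc5, Stat4, Il6st and Tet2 come from different lists and lay above every control at day 7, without passing the edgeR test. In the lists that hold them, 1 or 2 of 12 to 21 tested members did so, beside 0.982% of all genes tested and 1.26% at 10 CPM or more. Dgka, coding for the diacylglycerol kinase that dampens receptor signals, was at 2138 to 2667 CPM at day 7 and 1126 to 2108 CPM in the controls. Btla, an inhibitory receptor, was at 124 to 156 and 92.4 to 122 CPM, and Nlrc5, the transactivator of MHC class I genes, at 374 to 448 and 223 to 352 CPM. The edgeR adjusted p-values were 0.0904, 0.0813 and 0.0709. Stat4, the transcription factor that responds to interleukin 12, was at 141 to 208 and 83.1 to 139 CPM, Il6st, the shared receptor chain gp130, at 426 to 554 and 341 to 420.4 CPM, and Tet2, a DNA demethylation enzyme, at 195 to 281 and 179 to 193 CPM. Without control libraries 1 and 2 the log2 changes of Dgka, Nlrc5 and Stat4 were 0.24, 0.30 and 0.27, against 0.46, 0.45 and 0.43 with all controls, and those of Btla, Il6st and Tet2 were 0.37, 0.33 and 0.36, against 0.38, 0.32 and 0.34. Slamf6, an adhesion receptor of the SLAM family, was at 135, 155 and 177 CPM at day 7 and 101, 69.7, 113, 111 and 137 CPM in the controls, where control library 5 lay just above the lowest day 7 library.

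The lists of memory and cytotoxic genes had negative medians, whereas the list of T cell cytokines lay near all tested genes with all controls. The list of memory and activated genes had 16 of 18 members with a negative change and a median of -0.44, and 15 negative and a median of -0.25 without control libraries 1 and 2. Vim, coding for the filament protein vimentin, was at 376, 515, 321, 317 and 305 CPM in control libraries 1 to 5 and at 171, 233 and 259 CPM at day 7, without overlap (log2 change -0.68 ± 0.18, SE; edgeR adjusted p = 0.0777; -0.45 without control libraries 1 and 2). In the cytotoxic list 9 of 14 members were negative (median -0.19, -0.18 without control libraries 1 and 2), beside 4614 of the 8417 genes of at least 10 CPM. In the list of T cell cytokines 9 of 16 members were positive (median 0.09), beside 56.2% of all tested genes (median 0.07). Without control libraries 1 and 2, 12 were positive (median 0.26), beside 62.4% of all tested genes (median 0.12). Gzma, a granzyme gene, was at 5.32, 2.85, 2.51, 7.97 and 2.53 CPM in the controls and 0.174, 0.884 and 1.99 CPM at day 7, without overlap, and Gzmb at 9.92, 10.2, 9.76, 3.36 and 1.89 and 0.515, 0.997 and 2.76 CPM, where control library 5 lay inside the day 7 range. Their log2 changes were -2.06 (SE 0.47) and -2.38 (SE 0.49), with an edgeR adjusted p of 0.0709 for each, and -2.10 and -1.90 without control libraries 1 and 2.

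NK and innate lymphoid transcripts had a list median of -0.76 with all controls and -0.82 without control libraries 1 and 2. The 13 genes of that list, all in the table, summed to 161, 157, 124, 119 and 117 CPM in control libraries 1 to 5 and to 65.1, 82.4 and 99.5 CPM (lowest, median, highest) at day 7, so that every day 7 library lay below every control. Of the markers Ncr1, Klrb1c and Tyrobp, whose sum was 2.12 to 9.13 CPM at day 7 and 9.76 to 23.7 CPM in the controls, Ncr1 and Tyrobp had 0 counts in some day 7 libraries. The part of these cells in the values of Klrk1, Gzma and Gzmb was not tested. Ppp3r1, coding for the regulatory subunit of calcineurin, was at 57.8 to 76.2 CPM at day 7 and 84 to 92.5 CPM in the controls, and Cbfb, the partner of RUNX factors, at 131 to 159.7 and 167 to 229 CPM. Mcl1, a survival gene of the BCL2 family, was at 402 to 491 and 487 to 616 CPM, with overlap. Ifngr1, a chain of the interferon gamma receptor, was at 259, 241, 246, 118 and 86.3 CPM in the controls and 87.1, 95.3 and 136 CPM at day 7, and Ifngr2, the other chain, at 132, 96.3, 146, 57.4 and 67.6 and 52.3, 62.7 and 76.1 CPM. In both chains 3 controls were high and control libraries 4 and 5 lay within or near the day 7 range.

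Response programmes showed no common shift. The type I interferon list had a median of 0.16 with all controls and -0.00 without control libraries 1 and 2, and the interferon gamma list 0.12 and 0.01. Zc3hav1l was placed in the first list with earlier results of these data known. It was the only member of that list that passed the test or lay above all controls. Whether interferon induces Zc3hav1l was not tested. The type I index was 4.96, 5.35 and 5.58 at day 7 (lowest, median, highest) and 5.07, 4.99, 5.13, 5.62 and 4.99 in control libraries 1 to 5, with control library 4 above every day 7 library. Immediate early genes, induced within minutes of stimulation, had indices of 6.29 and 6.37 in day 7 libraries 6 and 7 and 6.53 and 6.40 in control libraries 4 and 5, and between 6.59 and 7.38 in the other 8 libraries. The NF-kappaB list had a median of -0.01 (0.14 without control libraries 1 and 2).

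**Figure D3:**
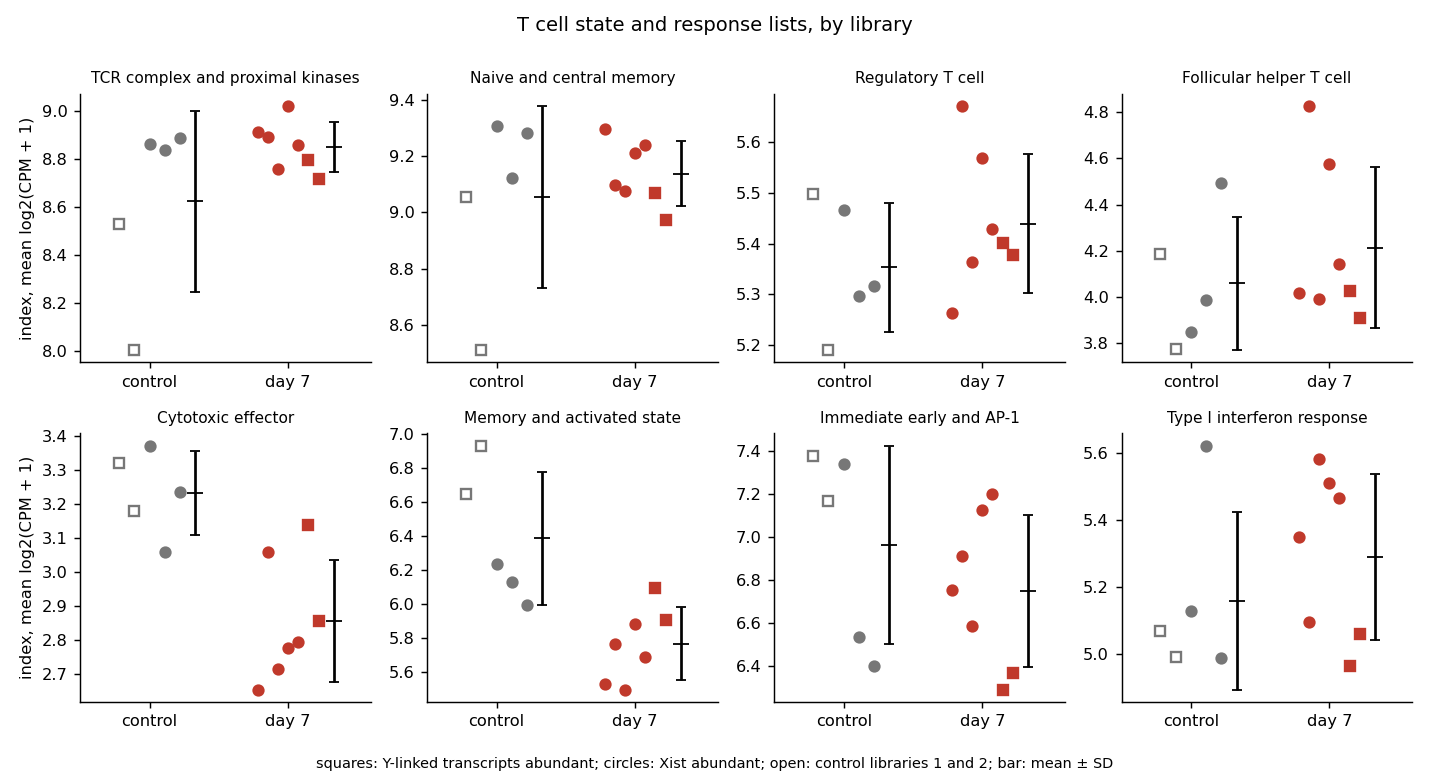
Index (vertical axes, mean log2(CPM + 1)) of 8 lists of T cell state and response in each library (grey, control; red, day 7; squares, abundant Y-linked transcripts; circles, abundant Xist; open, control libraries 1 and 2; bar, mean ± SD). Day 7 libraries 2 and 4 are highest for the follicular helper list, and control library 2 is lowest for the T cell receptor list.

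Lists of neutrophil, erythroid, progenitor and mitosis genes were among those with the most negative medians, and these 4 medians were closer to 0 without control libraries 1 and 2. The median change was -5.31 for neutrophil genes, -2.60 for erythroid genes, -2.15 for progenitor genes and -1.74 for mitosis genes, and -0.99, -0.40, -0.91 and -0.10 without these libraries. Medians of other cell types did not follow 1 direction. With all controls and without control libraries 1 and 2 they were -2.54 and 0.61 for basophil, mast cell and eosinophil genes. For platelet genes they were -0.60 and 0.30. For stroma and endothelium they were 0.54 and 0.81. With all controls 10 of 13 tested members of that list were positive, beside 56.2% of all tested genes. Its member Col1a2 averaged 0.618 CPM in the controls and 1.55 CPM at day 7. The 10 basophil, mast cell and eosinophil genes summed to 77, 117, 23.4, 14.4 and 11.9 CPM in control libraries 1 to 5. At day 7 they summed to 1.2, 6.56 and 16 CPM (lowest, median, highest), and 6 had 0 counts in some libraries. S100a8, a neutrophil calprotectin subunit, was at 117, 549, 7.57, 4.86 and 0.472 CPM in control libraries 1 to 5 and at 0, 1.07 and 5.2 CPM at day 7. Mki67, the proliferation antigen, was at 1379.5, 3249.7, 357, 263 and 190.1 CPM in the controls and 126, 196 and 495 CPM at day 7 (log2 change -2.12 with all controls and -0.10 without control libraries 1 and 2). Control libraries 3 to 5 lay within the day 7 range for Mki67. Hist1h1e, coding for a linker histone, was the histone gene without overlap, at 307, 444, 189, 207 and 237 CPM in the controls and 96.4, 129.7 and 177 CPM at day 7 (log2 change -1.01 ± 0.23, SE; edgeR adjusted p = 0.0709; -0.61 without control libraries 1 and 2).

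The 8 neutrophil markers, all in the table, summed to 765, 2324, 45.6, 26.8 and 17.7 CPM in control libraries 1 to 5 and to 0.802, 5.72 and 34.2 CPM at day 7. The 14 genes of the longer neutrophil list found in the table summed to 895, 2661, 58.9, 35.2 and 22.4 and 2.58, 12.8 and 44.1 CPM. The erythroid list, 18 genes in the table, summed to 795, 1818, 150.2, 178 and 70 CPM in the controls and 10.3, 18.9 and 329 CPM at day 7, with day 7 libraries 6 and 7 at 198 and 329 CPM and the other 5 at 10.3 to 22.9 CPM. The adult globin genes were listed at 0 in every library of both groups and so give no measure of red cell RNA. B cell markers, which the transplanted lymphoma would also express, were low in both groups: Cd79a, Cd79b, Ms4a1, Pax5 and Ebf1 summed to 43.8, 22.6, 22.2, 30.2 and 8.2 CPM in control libraries 1 to 5 and to 6.7, 11.1 and 17.7 CPM at day 7. The part of these other cells in the differences of other genes was not tested.

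MHC class II genes, expressed by B cells, dendritic cells and macrophages, had a median change of -1.83 with all controls and -1.15 without control libraries 1 and 2. Cd74, the invariant chain that accompanies class II molecules, was at 369, 281, 167, 129.6 and 33.2 CPM in the controls and 6.59, 24.1 and 81.8 CPM at day 7 (log2 change -2.39 ± 0.55, SE; edgeR adjusted p = 0.0709; -1.55 without control libraries 1 and 2). The highest day 7 libraries, 6 and 7, lay above control library 5. H2-Eb1, a class II beta chain, was at 34.1, 27.4, 14.9, 20.8 and 3.13 CPM in the controls and 0.172, 2.57 and 11.3 CPM at day 7 (log2 change -2.27, -1.63 without control libraries 1 and 2). Day 7 libraries 6 and 7 were again the highest of their group.

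**Figure D4:**
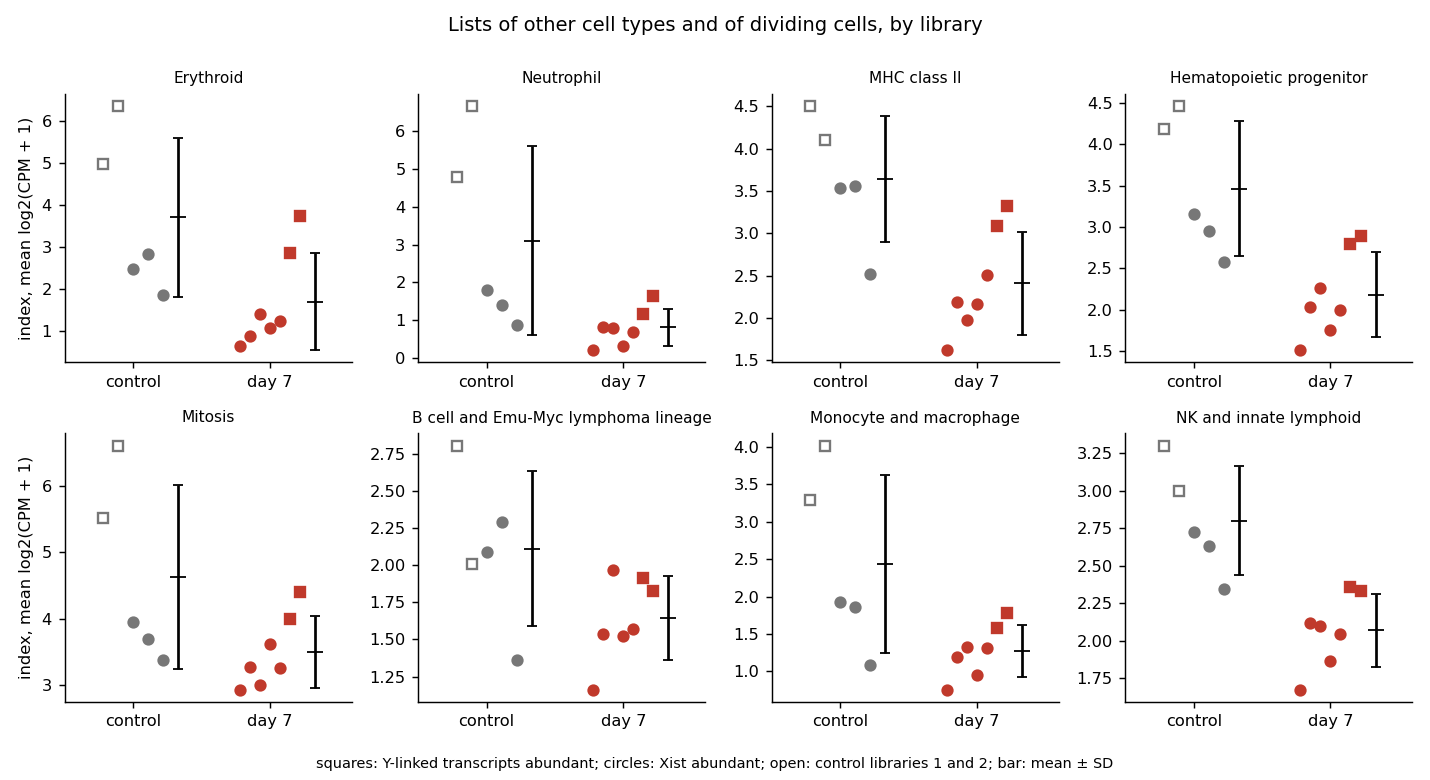
Index (vertical axes, mean log2(CPM + 1)) of 8 lists of other cell types and of mitosis in each library (grey, control; red, day 7; squares, abundant Y-linked transcripts; circles, abundant Xist; open, control libraries 1 and 2; bar, mean ± SD). Control libraries 1 and 2 are highest for the erythroid, neutrophil and mitosis lists, and day 7 libraries 6 and 7, at 2.85 and 3.74 for the erythroid list, lie above the other day 7 libraries.

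**Figure D5:**
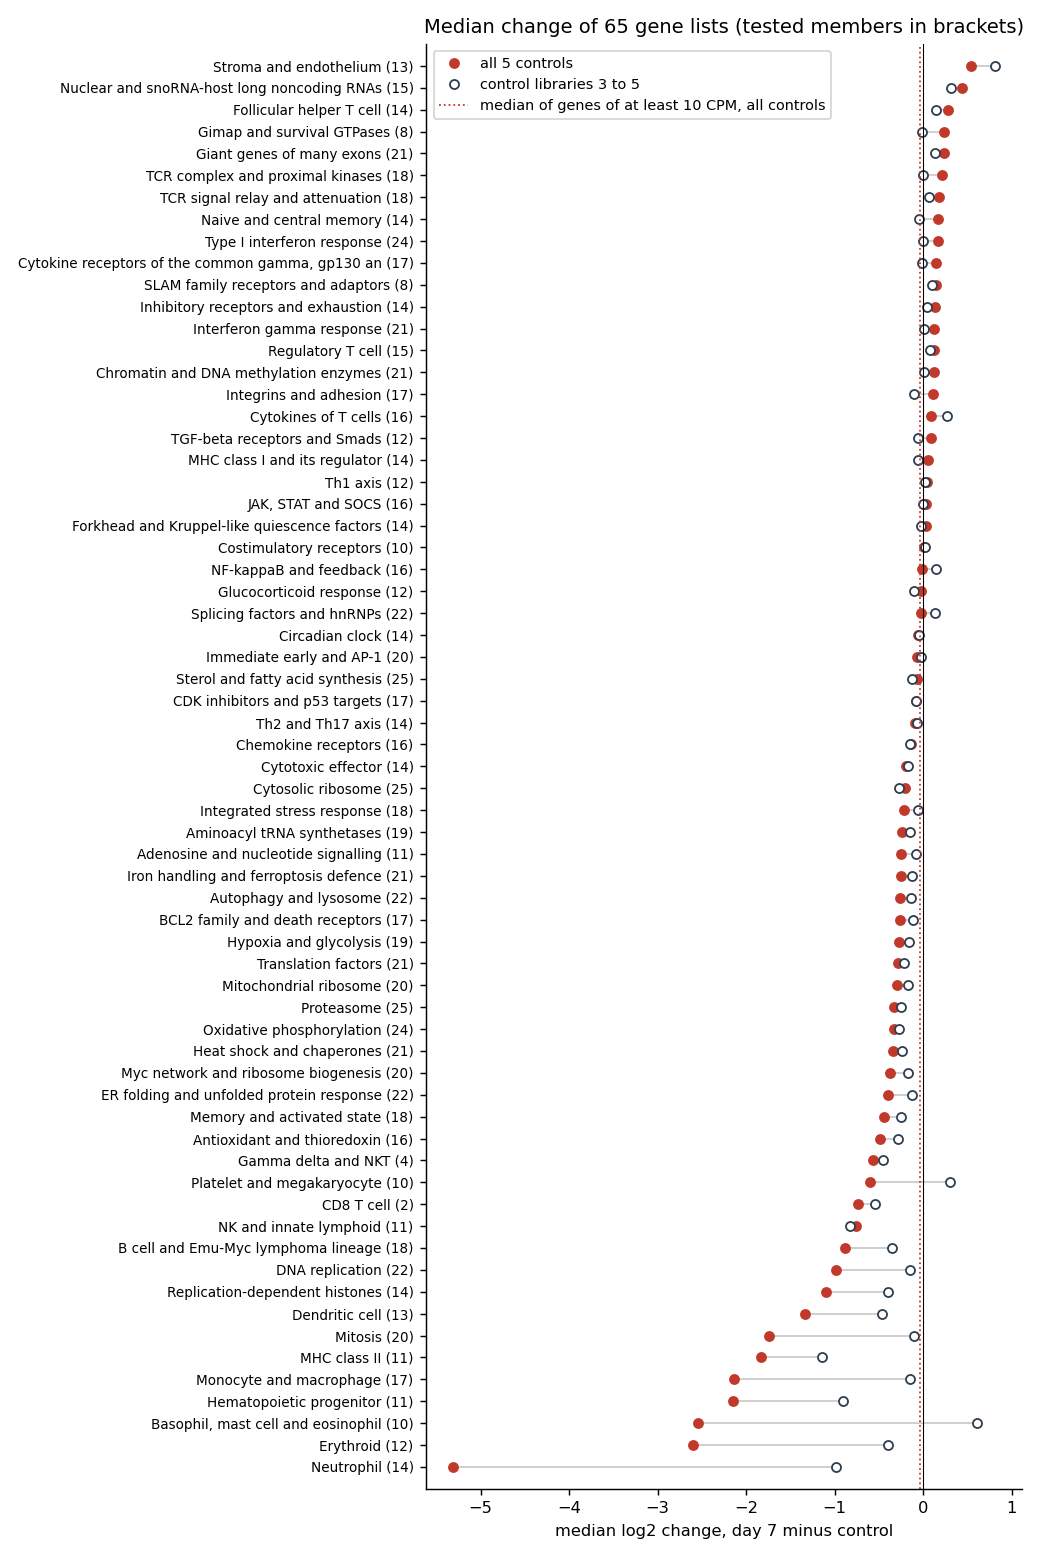
Median log2 change of the tested members of 65 gene lists (horizontal axis, day 7 minus control), with all 5 controls (filled red) and with control libraries 3 to 5 only (open), the dotted line marking the median of genes of at least 10 CPM. The neutrophil median is -5.31 with all controls and -0.99 without control libraries 1 and 2, whereas the oxidative phosphorylation medians are -0.33 and -0.27.

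When only libraries with abundant Xist were compared, 5 at day 7 and control libraries 3 to 5, more genes passed the test. Day 14 libraries 2 and 3, also with abundant Xist, entered the gene filter, the scaling and the estimate of spread of this fit. Of 19152 genes, 68 rose (0.355%) and 212 fell (1.11%) at an edgeR adjusted p below 0.05. Zc3hav1l and 1810019D21Rik rose, with log2 changes of 0.90 and 1.68 (adjusted p = 0.0183 and 0.0252). Fbxl22 rose by 1.19 (adjusted p = 0.000496), Pygm by 1.42 (0.00141) and Nfkbiz by 0.76 (0.00087). These genes lay above their 3 controls in all 5 day 7 libraries. Of the 22 tested splicing genes 4 rose and 0 fell: Srsf3, Srsf6, Srsf7 and Clk1, the kinase of such factors, the last chosen after its values were seen. Clk1 was at 649 to 959 CPM in the 5 day 7 libraries and 666, 429 and 386 CPM in the 3 controls (log2 change 0.63, adjusted p = 0.0389), and Srsf3 at 268 to 365 and 272, 187 and 164 CPM. In the Y-linked libraries alone the log2 change of Clk1 was -0.11.

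Genes that fell in this comparison included lymphocyte genes listed for memory, NK or innate-like T cells, and class II, erythroid and progenitor genes. The T cell receptor list had a median change of -0.00152 here. Which cells gave the lymphocyte transcripts was not tested. Cd7, a T and NK cell surface protein, was at 16.3 to 28.5 CPM in the 5 day 7 libraries and 44.7, 51 and 50.8 CPM in the 3 controls (log2 change -1.09 ± 0.17, SE; adjusted p = 0.00141). Zbtb16, coding for the transcription factor PLZF of innate-like T cells, was at 7.91 to 16.5 and 30, 22 and 25.2 CPM, and Ccl5, a chemokine of memory and cytotoxic cells, at 17.6 to 47.4 and 72.2, 66.3 and 75.5 CPM. All 3 genes fell, with adjusted p-values of 0.00141, 0.00367 and 0.00691. In the Y-linked libraries alone, 2 against 2, the log2 changes had the other sign, at 0.52 for Cd7, 0.10 for Zbtb16 and 0.58 for Ccl5. Gzmb, Klrk1, Chst11, Faim3, Vim, Ldha and Cbfb fell as well, by 2.40, 1.47, 1.55, 2.05, 0.56, 0.60 and 0.53 on the log2 scale, whereas no member of the oxidative phosphorylation list passed. Ldha and Cbfb were at 0.0290 and 0.00798 on that scale in the Y-linked libraries.

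Of the 11 class II genes 4 fell, among them Cd74 (log2 change -2.51, adjusted p = 0.000801), H2-Eb1 (-2.91, 0.00835) and H2-Aa (-2.74, 0.037). Of the 12 tested erythroid genes 6 fell. Over all 19152 genes of this comparison the share that fell was 1.11%. Car1, carbonic anhydrase 1, was at 0.0439 to 2.23 CPM in the 5 day 7 libraries and 75.9, 81.8 and 29.1 CPM in the 3 controls (log2 change -5.81 ± 0.58, SE; adjusted p = 1.54e-05), without overlap. Ermap, a red cell membrane protein, Klf1 and Gata1, erythroid transcription factors, and Kit, the stem cell factor receptor, were chosen after their values were seen and fell by 3.34, 3.71, 1.32 and 3.12 on the log2 scale. Mpo and Lyz2, granule enzymes of myeloid cells, fell by 3.31 and 5.56. The monocyte and macrophage list had a median of -0.00949, and 4 of its 17 tested members fell, Lyz2 among them. Its member Cd68 went the other way, at 15.1 to 21.2 CPM in the 5 day 7 libraries and 11.9, 11 and 5.24 CPM in the 3 controls (log2 change 0.90, edgeR adjusted p = 0.0502). In day 7 libraries 6 and 7, which were not part of this comparison, Car1 was at 95.4 and 119.9 CPM and Kit at 21.9 and 25.6 CPM. Leaving out control library 4 reduced the calls to 13 higher and 61 lower, and leaving out control library 3 gave 210 and 240.

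A test of whether the day 7 difference itself differed between libraries with abundant Xist and those with Y-linked transcripts, over 12 libraries and 15058 genes, gave 510 genes with a more positive and 288 with a more negative change in the latter (edgeR adjusted p below 0.05). The Y-linked libraries were 2 against 2, and their controls were the libraries with myeloid and dividing-cell transcripts. Which of these features goes with the difference cannot be told apart.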

How the data were processed

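Spleen CD4 T cell RNA-seq libraries (100 ng of RNA each, per the labels' protocols) were analysed from 1 deposited table of raw read counts per gene. Per the submitters' processing notes, making these counts involved HTSeq 0.6.1, cutadapt 1.8.1 and bcl2fastq 2.20.0.422, with the build mm10. The aligner, the annotation and the strand setting are not given in the sources used here. The 5 rows that name no gene, 2 of them at 0 throughout, were kept out of library sizes and tests. They hold the share of reads outside gene models (47.06 to 67.97% in the 12 libraries), a share that lowers the depth over genes.

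Counts were fitted with edgeR 4.0.16 in R 4.3.3 (filterByExpr by group, TMM scaling, quasi-likelihood test, day 7 minus control, Benjamini-Hochberg). All 16 libraries shared 1 estimate of spread, and 14 did without control libraries 1 and 2. The fit of libraries with abundant Xist also held day 14 libraries 2 and 3, and that of Y-linked libraries day 14 library 4. A gene was called at an adjusted p below 0.05. The same fit on simulated counts recovered 63% of 2-fold and 90% of 4-fold changes with all libraries (17341 genes), and 60% and 83% without control libraries 1 and 2 (17945 genes). Of its calls, 5 and 10 were false. The simulated spread depended only on a gene's level, and no library carried transcripts of other cells. These shares therefore do not measure the sensitivity of the test in the real libraries. DESeq2 1.42.0 and limma 3.58.1 (voom) served as alternatives. Gene lists (65) are described by counts, by medians and by an index per library, the mean log2(CPM + 1) of tested members, with no test. Library measures were compared by exact 2-sided permutation.

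Genes were named by a rule: called genes, then genes of at least 10 CPM without overlap between groups (the 10 with the largest change and the 10 with the smallest p in each direction, predicted genes passed over), then the 3 list members with the smallest p and the most abundant member, then a panel of markers. The members, the lists and this rule were chosen with earlier results of these data known. Of the genes this rule names, 2 are not reported here. Positions come from GENCODE vM21 (GRCm38) and RefSeq; 98.2% of symbols matched.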

Additional observations from a re-analysis of the deposited data

Results flagged for a closer look

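Of 276 groups of libraries examined for a library far from the others of its group (69 genes, 65 list indices and 4 library measures, in the controls and at day 7), 10 had one (3.623%), where chance gives about 1 in 20. At day 7, Zc3hav1l was at 25.3 CPM in library 3, against 16 to 19.4 CPM in the other 6. Fbxl22 was at 23.5 CPM in library 4 (others 29.5 to 33.4 CPM), Stat4 at 208 CPM in library 2 (others 141 to 163 CPM) and Ninj1 at 3.44 CPM in library 5 (others 5.71 to 7.35 CPM). Among the controls, library 2 stood apart for Mrpl20 (38.9 CPM, others 22.4 to 26.8), S100a8 (549 CPM, others 0.472 to 117), Cd3e (880 CPM, others 1435 to 1598) and the cytokine receptor index (6.95, others 7.27 to 7.38). Control library 5 stood apart for Zfp354c at 15.2 CPM (others 10.3 to 11.7 CPM), and control library 4 for the type I interferon index at 5.62 (others 4.99 to 5.13).

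For 3 of the 69 named genes the day 7 change differed between libraries with abundant Y-linked transcripts and libraries with abundant Xist (edgeR interaction test, 12 libraries). Over all 15058 genes tested, 510 had a more positive and 288 a more negative change in the Y-linked libraries, so the count of 3 does not single out the named genes. The change in the Y-linked libraries minus that in the Xist libraries was 1.51 for Cd7 (adjusted p = 0.0218), 4.07 for Car1 (adjusted p = 0.0181) and -1.80 for Mki67 (adjusted p = 0.0286), on the log2 scale. The Y-linked controls are control libraries 1 and 2, which also carry the myeloid and dividing-cell transcripts, so these cannot be told apart.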

How the results depend on the processing

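The 2 genes called higher with all libraries, beside 0 lower, were followed through each alternative. RLE size factors, no filter and a stricter filter gave 2 higher and 0 lower, and library totals, robust fitting and limma-voom 3 higher and 0 lower. Library quality weights in voom and the share of reads outside gene models as a covariate each gave 0 higher and 0 lower. DESeq2 gave 499 higher and 1104 lower, Y-linked transcripts as a covariate 82 and 251, only libraries with abundant Xist 68 and 212, only those with Y-linked transcripts (chosen after seeing the data) 973 and 1254, an adjusted p below 0.10 (also chosen then) 474 and 943, and day 7 and control libraries alone 3 and 1. Leaving out 1 library at a time gave 0 to 429 higher and 0 to 1026 lower. Without control libraries 1 and 2, 0 genes were called, and then DESeq2 gave 260 higher and 39 lower, day 7 and control libraries alone 1 and 0, and leaving out 1 library 0 to 1 in each direction. Among libraries with abundant Xist, DESeq2 gave 838 higher and 512 lower, limma-voom 31 and 176, and leaving out 1 library 13 to 210 higher and 61 to 258 lower. The cause of these shifts was not tested.

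Same-numbered day 7 and control libraries did not deviate together (r = -0.21 to 0.15 over 5 pairs, 1 of 5 above 0.1, and 0 of 5 controls correlated best with its own number). The mice were therefore treated as unpaired. These deviations also hold the myeloid and dividing-cell transcripts of control libraries 1 and 2, so the check cannot exclude a weaker pairing. With the replicate block, 6 genes were higher and 29 lower with all libraries, and 7 and 40 without control libraries 1 and 2.

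Reads outside gene models differed in share by 6.34 to 9.23 percentage points between the groups when 1 library was left out, with an adjusted p between 0.0563 and 0.0788 without day 7 library 2 or 5 or control library 1, 3, 4 or 5, in exact permutation tests. That in ambiguous reads was -0.0617 to -0.0386 percentage points, with an adjusted p of 0.0404 without day 7 library 4.

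Of 1863 gene values (69 named genes under 27 alternatives), 1605 kept their direction and side of the threshold, 227 passed it, 20 no longer did and 11 changed sign. In Y-linked libraries only, the log2 change was 0.00798 for Cbfb, 0.0290 for Ldha, 0.10 for Zbtb16, 0.52 for Cd7, 0.58 for Ccl5 and -0.11 for Clk1. For Cd3e it was -0.00167 with Y-linked transcripts as a covariate, -0.0227 in Xist libraries and -0.0867 without control libraries 1 and 2, and -0.0635 (without control library 2) to 0.155 when 1 library was left out, being also -0.0102 without day 7 library 4. Of the 65 list medians, 13 changed sign without control libraries 1 and 2, 17 in Xist libraries and 7 with the share outside gene models as a covariate, against 0 to 3 under the other settings. Medians that moved by at least the SD of the day 7 index numbered 32, 27 and 28 in the same order. With Y-linked transcripts as a covariate 9 did so, and 0 to 2 under the remaining settings.

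Each library left out other than day 7 library 4 moved the numbers of genes called higher and lower with all libraries. Without control library 5 they were the 429 and 1026 given above, without control library 3 they were 5 and 7, without control library 4 they were 4 and 5, without day 7 library 6 they were 4 and 0, and without day 7 library 1, 2, 3, 5 or 7 or control library 1 or 2 they were 0 and 0. Y-linked transcripts and myeloid and dividing-cell transcripts cannot be told apart among the controls. The comparison within Y-linked libraries rests on 2 against 2 libraries and on the spread within them.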
